A study of Mus musculus with 9 samples.

Results

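The levels of 10 genes of leukocyte adhesion were followed in the livers of ethanol-fed mice. They encode the endothelial ligands ICAM-1, ICAM-2 and VCAM-1 (Icam1, Icam2 and Vcam1), the endothelial selectins E and P (Sele and Selp), the P-selectin ligand of leukocytes (Selplg), and the integrin chains beta 2, alpha L, alpha M and alpha 4 (Itgb2, Itgal, Itgam and Itga4). The members were taken by gene symbol, and all 10 were found among the 55401 genes of the deposited table. Of these, 7 reached the mean of 0.5 FPKM over the 9 libraries that was required for the test across genes, while Sele, Itgam and Itga4 (mean 0.497 FPKM) did not. FPKM counts fragments for each kilobase of transcript and is scaled to the depth of the library, a level per length, so that levels can be set side by side between genes.

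The livers came from 4 Ncf1Lyz-/- mice and 5 WT mice, all female, 10 to 12 weeks old and of the strain C57BL/6 by the labels, with the floxed line on C57BL/6J by the study's methods. Both groups carried the floxed Ncf1 gene (Ncf1-fl/fl). The Ncf1Lyz-/- mice, called NKO in the labels, also carried Lyz-Cre, a recombinase driven by the lysozyme gene of myeloid cells, and their WT littermates did not. Ncf1 encodes p47phox, a subunit of the phagocyte NADPH oxidase. After 5 days on liquid control diet, all mice had free access to a diet with 5% (v/v) ethanol for 10 days, received 5 g/kg ethanol by gavage on day 11 and were killed 9 hours later, so every value below belongs to an ethanol-fed liver. The 9 libraries (NKO2, NKO3, NKO4 and NKO5 against WT1, WT2, WT3, WT4 and WT6) held 15.4 to 20.3 M fragments each as estimated from the smallest FPKM steps (M, mega), of which WT3, WT4 and WT6 were the shallowest, at 15.4 to 16.2 M. Because these 3 are all WT livers, depth and group cannot be told apart there, and values are also given for the 6 libraries of higher depth, 4 NKO against WT1 and WT2. In these 6 libraries the median log2 fold change of all tested genes was −0.11 and 67.9% of them were negative, so values there are to be read against that shift. Nothing in the labels states a pooling of animals, and p-values measure the spread between these libraries only.

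Leukocytes leave the blood in steps. Selectins on activated endothelium slow the rolling cell by binding sugars on PSGL-1, the product of Selplg, and integrins of the leukocyte then bind immunoglobulin-type ligands on the vessel wall. LFA-1 (Itgal with Itgb2) binds ICAM-1 and ICAM-2, Mac-1 (Itgam with Itgb2) binds ICAM-1, and VLA-4 (Itga4 with Itgb1) binds VCAM-1. In the liver, neutrophils can stop in the narrow sinusoids with little help from selectins, and Kupffer cells and lymphocytes resident there carry integrins too. NF-kB, a transcription factor switched on by inflammatory cytokines, is known to induce Icam1, Vcam1 and Sele in endothelium.

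Icam1 and Sele were the members with the highest single values relative to the other livers, both in NKO5, and promoter sequences are shown for these genes to display the letters of the NF-kB type motif before their values. RefSeq promoter windows (GRCm38.p6, from 250 bases before to 50 after the RefSeq start of the gene) were given for 5 of the 10 members, Icam1, Sele, Selp, Itgam and Itga4. The search covered GGANNNTCC, a pattern that some but not all NF-kB sites fit, and TATAAA, on both strands. The motifs were chosen with the sequences in view. The Icam1 window is chr9:21015690-21015989 and the Sele window chr1:164047984-164048283, both on the plus strand, with matches in capitals.
Icam1: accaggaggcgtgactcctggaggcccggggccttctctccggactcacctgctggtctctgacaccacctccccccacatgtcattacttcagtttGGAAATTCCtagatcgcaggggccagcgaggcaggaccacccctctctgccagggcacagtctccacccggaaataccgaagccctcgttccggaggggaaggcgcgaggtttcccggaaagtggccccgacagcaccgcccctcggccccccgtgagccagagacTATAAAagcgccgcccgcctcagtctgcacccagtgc
Sele: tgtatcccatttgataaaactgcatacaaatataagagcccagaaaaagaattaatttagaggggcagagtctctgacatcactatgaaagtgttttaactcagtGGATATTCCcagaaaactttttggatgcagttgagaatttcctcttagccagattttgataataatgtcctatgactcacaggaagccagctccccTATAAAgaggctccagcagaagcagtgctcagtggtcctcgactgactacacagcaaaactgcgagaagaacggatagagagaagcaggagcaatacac
The GGANNNTCC match began at position −153 from the RefSeq start in Icam1, as GGAAATTCC, and at position −145 in Sele, as GGATATTCC. TATAAA began at −49 in Sele, and in Icam1 at 13, after the start that RefSeq gives. The GENCODE M21 start of Icam1, 21015985, lies downstream of this TATAAA, so the Icam1 distances depend on the start used. Of 32851 promoter windows of this length, 8.62% held GGANNNTCC and 13.6% held TATAAA. The windows of Selp, Itgam and Itga4 held neither set of letters, which says nothing of the factors that act there, and a match is a description of sequence, not of binding.

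Neither the targeted gene nor any member passed the test between groups. Ncf1 had 0.368, 0.333, 0.440 and 0.885 FPKM in NKO2 to NKO5 and 1.82, 1.16, 0.492, 0.366 and 1.10 FPKM in WT1, WT2, WT3, WT4 and WT6. The groups overlapped, with NKO5 the highest of the NKO livers and WT4 among the lowest of all. The log2 fold change of Ncf1, NKO minus WT, was −0.74 (standard error 0.44, limma adjusted p = 0.890). Among the 6 libraries of higher depth it was −1.44 (standard error 0.41, limma unadjusted p = 0.0102, adjusted p = 0.868), with all 4 NKO values below WT1 and WT2 (exact permutation test, p = 0.0667, the smallest these 6 allow). These values are for all exons of Ncf1 together in a tissue of many cell types. Of 12350 tested genes, limma called 1, the mitochondrial gene mt-Tl2, which is 0.0081% of them. At an unadjusted p under 0.05 limma gave 729 genes, or 5.9%, and 0 of the 7 tested members. The adjusted p-values of the 7 members ran from 0.844 to 0.996. In 2.21% of the tested genes the 4 NKO and 5 WT values did not overlap, and for all 10 members they overlapped.

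**Figure D1:**
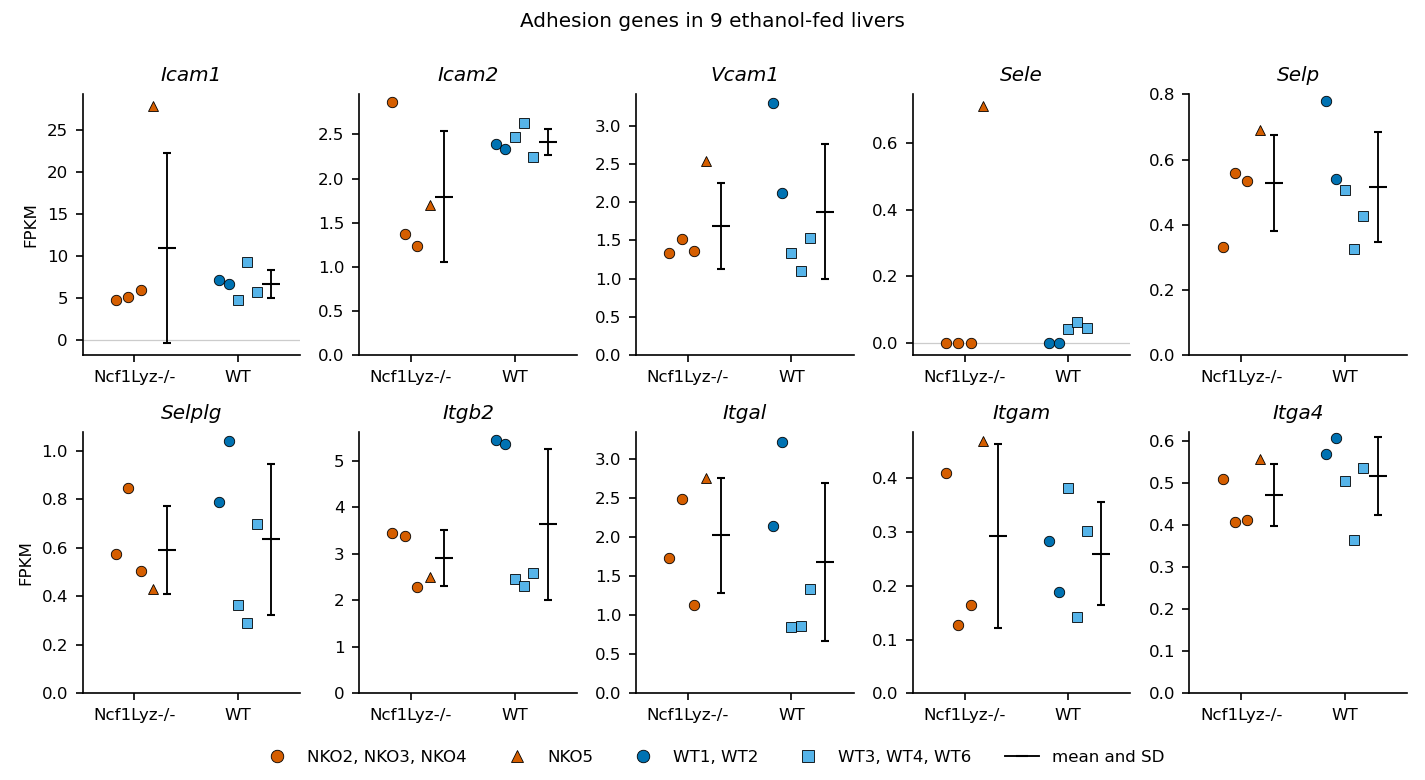
Levels of the 10 adhesion genes in FPKM (y axis, linear) by group (x axis), with 1 point per liver and, except for Sele, the mean and SD of 4 Ncf1Lyz-/- and 5 WT livers. NKO5 (triangle) stands far above the other livers for Icam1 (28.0 FPKM) and Sele (0.71 FPKM), while WT1 and WT2 hold the highest Itgb2 values (5.45 and 5.37 FPKM).

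The level of the members spanned a wide range. Icam1 was the most abundant, with a median of 5.88 FPKM over the 9 livers, and exceeded Itgb2, the next in order, in 9 of 9 livers. Itgb2 (median 2.60 FPKM), Icam2 (2.33 FPKM), Itgal (1.72 FPKM) and Vcam1 (1.51 FPKM) followed. These neighbours did not separate beyond their spread, since Itgb2 was above Icam2 in 7 of 9 livers, Icam2 above Itgal in 6 and Itgal above Vcam1 in 4. Vcam1 exceeded Selplg (median 0.574 FPKM) in all 9 livers. Selplg, Selp (0.535 FPKM) and Itga4 (0.509 FPKM) again changed places from liver to liver, with the higher-ranked gene ahead in 5 of 9 livers for each neighbouring pair. Itgam had a median of 0.284 FPKM, below Itga4 in every liver, and Sele was listed as absent in 5 of 9 livers.

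Icam1, the inducible ligand of LFA-1 and Mac-1, lies on chromosome 9 from 21015985 to 21028817 on the plus strand (GRCm38, GENCODE M21), with 7 exons in its longest coding transcript. It had 4.80, 5.04, 5.88 and 28.0 FPKM in NKO2, NKO3, NKO4 and NKO5. In WT1, WT2, WT3, WT4 and WT6 it had 7.09, 6.61, 4.70, 9.25 and 5.70 FPKM. A single liver set the group mean, since NKO5 was far above all the others while the other 3 NKO livers lay within the lower WT range. The mean of the Ncf1Lyz-/- group was 10.9 ± 11.4 FPKM (SD, n = 4), against 6.67 ± 1.71 FPKM (SD, n = 5) for WT. The log2 fold change was 0.29 (standard error 0.48, limma adjusted p = 0.954), and a two-sided exact permutation test over all arrangements of the 9 livers, whose smallest p is 0.00794, gave p = 0.802. Without NKO5 the direction turned, with a mean of 5.24 ± 0.568 FPKM (SD, n = 3) in the NKO group and a log2 fold change of −0.31 (limma adjusted p = 0.983).

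Icam2, a ligand of LFA-1 that endothelium carries without induction, lies on chromosome 11 from 106377656 to 106388075 on the minus strand. Its values were 2.87, 1.38, 1.23 and 1.70 FPKM in NKO2 to NKO5 and 2.39, 2.33, 2.47, 2.63 and 2.24 FPKM in WT1, WT2, WT3, WT4 and WT6. The WT livers were close together, 3 NKO livers lay below all of them, and NKO2 lay above all of them. Icam2 had the smallest p among the members, with a log2 fold change of −0.48 (standard error 0.22, limma unadjusted p = 0.0526 and adjusted p = 0.844; exact permutation test, p = 0.103). Without NKO2 the log2 fold change was −0.72, with a limma adjusted p of 0.331. The exact permutation test then gave p = 0.0179, the smallest its 56 arrangements allow. The order of livers described above fixed that p-value in advance, so it adds no evidence. With any other single liver left out, the exact permutation test gave p = 0.125 to 0.196. The level per liver rested on 29.7 to 71.0 estimated fragments for a transcript of 1282 bases.

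The ratio of the ICAM-1 and ICAM-2 genes was also read within each library. Icam1 per Icam2 was 1.67, 3.66, 4.77 and 16.5 in NKO2 to NKO5, and 2.96, 2.84, 1.90, 3.52 and 2.54 in WT1, WT2, WT3, WT4 and WT6. NKO2 had the lowest ratio of the 9 livers and NKO5, NKO4 and NKO3 the 3 highest, so the NKO livers lay on both sides of the WT range. The difference of the mean log2 ratio was 0.79, and an exact permutation test gave p = 0.246.

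Vcam1, the endothelial ligand of VLA-4, which Kupffer cells also express, lies on chromosome 3 from 116109949 to 116129688 on the minus strand. It had 1.34, 1.51, 1.37 and 2.53 FPKM in NKO2 to NKO5. The WT values were 3.3, 2.12, 1.34, 1.10 and 1.53 FPKM in WT1, WT2, WT3, WT4 and WT6. WT1, NKO5 and WT2 were the 3 high livers, and the other 6 lay between 1.10 and 1.53 FPKM. The log2 fold change was −0.09 (standard error 0.31, limma adjusted p = 0.980), and it was −0.67 among the 6 libraries of higher depth (limma adjusted p = 0.897) but 0.13 without WT1.

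Sele, which encodes E-selectin, a receptor that endothelium makes after cytokine stimulation, lies on chromosome 1 from 164048234 to 164057677 on the plus strand and has a single annotated transcript of 2912 bases. It was listed at 0.71 FPKM in NKO5 and as absent in NKO2, NKO3, NKO4, WT1 and WT2. WT3, WT4 and WT6 had 0.0438, 0.0644 and 0.0449 FPKM. With the estimated depths these values stand for 42 fragments in NKO5 and for 2, 3 and 2 fragments in the 3 WT livers, at or under the limit of 3 fragments that a count of 0 allows, 0.0507 to 0.0669 FPKM. NKO5 was the only liver clearly above this limit. An absent value can also be a failed estimate, since 0 to 2 genes per library with a median above 5 FPKM were listed as absent as well. A two-sided exact permutation test between the groups gave p = 0.881 for Sele.

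Selp, which encodes P-selectin of endothelium and platelets, is the neighbour of Sele on chromosome 1, from 164115264 to 164150026 on the plus strand. It had 0.333, 0.558, 0.535 and 0.690 FPKM in NKO2 to NKO5 and 0.779, 0.540, 0.505, 0.325 and 0.427 FPKM in WT1, WT2, WT3, WT4 and WT6. Unlike Sele it was measured in every liver and its highest value was in WT1. The log2 fold change was 0.04 (standard error 0.27, limma adjusted p = 0.989), and its sign changed without NKO5, WT4 or WT6. Platelet markers were low, with a summed level of 0.276 to 0.919 FPKM over 6 genes in NKO livers and 0.233 to 1.62 FPKM in WT livers. Gp6 was listed as absent in all 9 livers, Treml1 had 0.0374 FPKM in NKO2 and was listed as absent elsewhere, and Pf4, the platelet chemokine, had 0.111 to 0.986 FPKM.

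NKO5 was the highest liver for Icam1 and Sele, though not for Vcam1, and for most other genes that NF-kB is known to induce. Of 15 such genes, 12 were tested, 9 of them higher and 3 lower in the NKO group by sign and none called, and the median log2 fold change was 0.24 where all tested genes had a median of 0.00. Without NKO5 the same list had 6 positive and 6 negative values and a median of −0.08. NKO5 was the highest of the 9 livers for 11 of the 12, against 5.95% of all tested genes. The list was written with earlier results of these data known, so this share is a description only. The summed level of the 15 genes was 268.8 FPKM in NKO5 and 41.97 to 67.62 FPKM in the other 8 livers. Icam1 was among the 0.664% of tested genes whose highest value was in NKO5 and more than 1.5 times the next liver.

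The 4 members of this list with the smallest p were Irf1, Bcl3, Csf1 and Nfkb1. Irf1, an interferon-responsive transcription factor, had 6.64, 10.4, 4.82 and 27.2 FPKM in NKO2 to NKO5 and 4.83 to 7.10 FPKM in WT livers (log2 fold change 0.81, limma adjusted p = 0.886). Bcl3, a nuclear regulator of NF-kB, had 28.8 FPKM in NKO5 and 6.62 to 13 FPKM in the others. Csf1, the macrophage growth factor, had 6.58 FPKM in NKO5 against 2.43 to 4.41 FPKM, while Nfkb1, a subunit of NF-kB, had 2.0 FPKM there against 1.59 to 1.95 FPKM.

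Other genes of the list with their highest value in NKO5 encode feedback inhibitors and secreted factors, and they are named here after their values were seen. Nfkbia, the inhibitor that NF-kB induces against itself, had 49.5 FPKM in NKO5 and 10.2 to 23.2 FPKM in the other 8 livers. Tnfaip3, another feedback inhibitor, had 2.24 FPKM against 0.302 to 1.31 FPKM. Ccl2, the monocyte chemokine, had 15.1 FPKM against 0 to 1.78 FPKM, and Cxcl1, the neutrophil chemokine, had 108 FPKM against 0.690 to 23.3 FPKM. Cytokine genes that can switch on endothelial adhesion molecules were high in the same liver, with Il1b at 14.0 FPKM against 0.962 to 3.49 FPKM and Tnf at 2.72 FPKM against 0 to 0.433 FPKM. The part of NF-kB and of these cytokines in the Icam1 and Sele values of NKO5 was not tested.

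**Figure D2:**
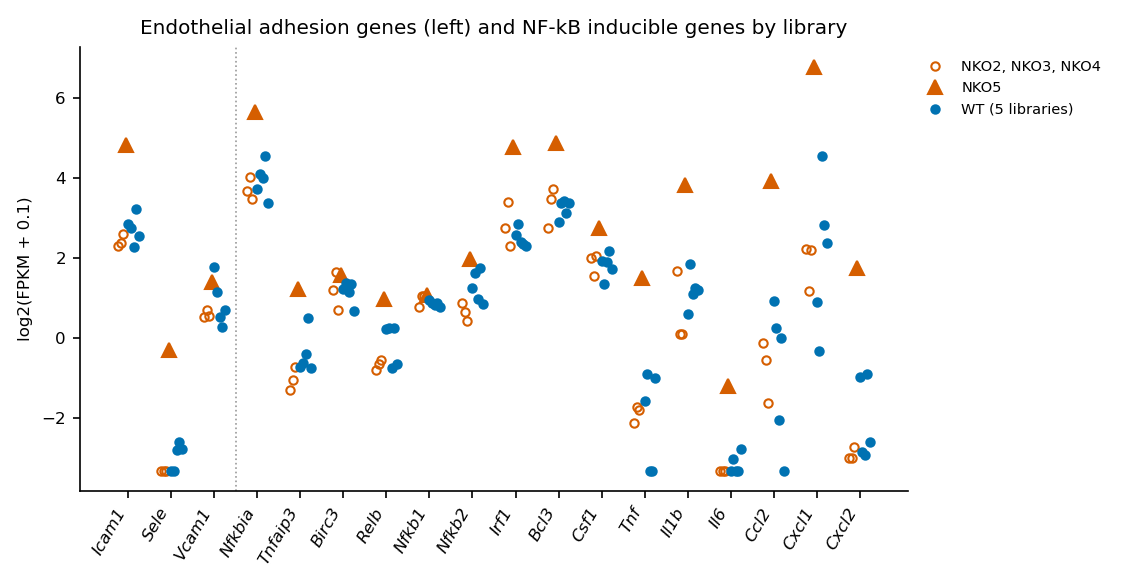
Levels on a log2(FPKM + 0.1) scale (y axis) of Icam1, Sele and Vcam1, left of the dotted line, and of the 15 NF-kB inducible genes, with 1 point per liver. NKO5 (triangles) is the highest liver for Icam1 (28.0 FPKM), Sele (0.71 FPKM), Nfkbia (49.5 FPKM) and Cxcl1 (108 FPKM), but not for Vcam1, where WT1 is higher (3.3 FPKM), or Birc3, where NKO3 is (3.02 FPKM).

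Neutrophil markers were in part high in NKO5 as well. Of 14 such markers 5 were tested, and 4 of the 5 had their highest value in NKO5, against 5.95% of all tested genes. Among all 14 it was 9, but these include genes under the filter, such as Camp at 0.109 FPKM in NKO5. No share over all genes was computed for genes under the filter. S100a9, a calcium-binding protein abundant in neutrophils, had 11.3 FPKM in NKO5 and 2.57 to 6.51 FPKM in the other livers, and S100a8, its partner, had 4.37 FPKM against 0.340 to 3.23 FPKM. The summed level of all 14 was 91.8 FPKM in NKO5, 6.84 to 25.3 FPKM in the other NKO livers and 19.9 to 431.5 FPKM in WT livers, where most of it was Lcn2, a gene that hepatocytes also induce. Without Lcn2, left out after its values were seen, the sum was 23.9 FPKM in NKO5 and 4.49 to 12.8 FPKM in the others. The granule genes Mpo and Elane, markers of immature neutrophils, were listed at 0.0532 FPKM or less in every liver, and Ly6g at 0.0696 FPKM or less. The part of neutrophils in the Icam1 and Sele values was not tested.

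Among the integrin genes, Itgb2 followed another order of livers. Itgam was highest in NKO5 (0.469 FPKM) but, unlike Icam1 and Sele, only just above the next liver, NKO2 (0.410 FPKM). Itgb2, the beta chain shared by LFA-1 and Mac-1, lies on chromosome 10 from 77530252 to 77565708 on the plus strand. It had 3.46, 3.39, 2.28 and 2.5 FPKM in NKO2 to NKO5 and 5.45, 5.37, 2.46, 2.31 and 2.60 FPKM in WT1, WT2, WT3, WT4 and WT6. WT1 and WT2 were well above all other livers, and the other 3 WT livers lay within the NKO range. Over the 9 libraries the log2 fold change was −0.23 (standard error 0.30, limma adjusted p = 0.938; exact permutation test, p = 0.476). Among the 6 libraries of higher depth it was −0.90 (standard error 0.22, limma unadjusted p = 0.0051, adjusted p = 0.868), and the exact permutation test gave p = 0.0667, the smallest its 15 arrangements allow. In these 6 libraries all 4 NKO values lay below WT1 and WT2 for 12.3% of the tested genes, and among the 7 tested members for 1, Itgb2, a share close to that of all genes. Itga4, under the filter, showed the same separation.

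Itgal, the alpha chain of LFA-1, found on lymphocytes and myeloid cells, lies on chromosome 7 from 127296260 to 127335138 on the plus strand. Its values were 1.72, 2.48, 1.13 and 2.75 FPKM in NKO2 to NKO5. They were 2.14, 3.21, 0.846, 0.862 and 1.33 FPKM in WT1, WT2, WT3, WT4 and WT6. The highest and the lowest liver were both WT, and NKO5 was second. The log2 fold change was 0.36 (standard error 0.41, limma adjusted p = 0.932) over 9 libraries and turned to −0.44 (limma adjusted p = 0.921) among the 6 of higher depth.

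Itgam, the alpha chain of Mac-1, is typical of neutrophils and monocytes and lies on chromosome 7 from 128062640 to 128118491 on the plus strand. It had 0.410, 0.128, 0.165 and 0.469 FPKM in NKO2 to NKO5 and 0.284, 0.188, 0.383, 0.141 and 0.301 FPKM in WT1, WT2, WT3, WT4 and WT6. NKO5 and NKO2 were the highest and NKO3 the lowest, which is not the order of Itgal. With 10.7 to 44.6 estimated fragments per liver the gene was too low for the test across genes, and an exact permutation test gave p = 0.865. Itgal made up 63.9% to 88.2% of the summed level of the beta 2 partners Itgal, Itgam and Itgax. Itgal per Itgam ran from 2.21 in WT3 to 19.4 in NKO3 (exact permutation test between groups, p = 0.659). Itgb2 per summed partner ran from 0.750 in NKO5 to 2.05 in WT4, with medians of 1.31 in NKO and 1.855 in WT livers. The groups overlapped, and an exact permutation test gave an unadjusted p = 0.0794.

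Itga4, the alpha chain of VLA-4 of lymphocytes and monocytes, lies on chromosome 2 from 79255426 to 79333123 on the plus strand and varied the least among the members. It had 0.509, 0.408, 0.413 and 0.558 FPKM in NKO2 to NKO5 and 0.570, 0.607, 0.504, 0.365 and 0.537 FPKM in WT1, WT2, WT3, WT4 and WT6. The highest liver was 1.66 times the lowest, and an exact permutation test gave p = 0.508. Itgb1, its main beta partner, which most cell types express, had 25.0 to 32.9 FPKM over the 9 livers and exceeded Itga4 by 49.4 to 76.4 times, while Itgb7, the partner in gut-homing lymphocytes, had 1.59 and 1.10 FPKM in WT1 and WT2 and 0.538 to 0.825 FPKM in the other livers. Madcam1, the mucosal ligand of the latter pair, was listed as absent in all 9 livers.

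Selplg, which encodes PSGL-1, lies on chromosome 5 from 113818536 to 113832644 on the minus strand. It had 0.575, 0.847, 0.506 and 0.431 FPKM in NKO2 to NKO5 and 0.787, 1.04, 0.362, 0.288 and 0.696 FPKM in WT1, WT2, WT3, WT4 and WT6. The WT livers held both the highest and the lowest values, and NKO5, high in Sele, was the third lowest. The log2 fold change was −0.01 (standard error 0.35, limma adjusted p = 0.996), and −0.58 among the 6 libraries of higher depth (limma adjusted p = 0.903).

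**Figure D3:**
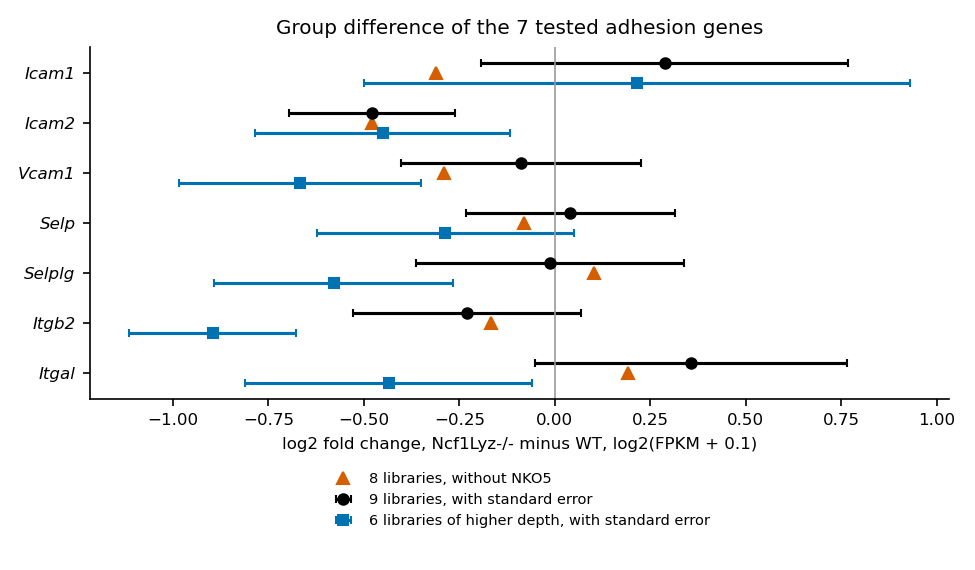
Log2 fold change, Ncf1Lyz-/- minus WT, of the 7 tested members on the log2(FPKM + 0.1) scale (x axis) from 9 libraries and from the 6 of higher depth, both with standard errors, and without NKO5. Icam1 lies at 0.29 with NKO5 and at −0.31 without it, and Itgal lies at 0.36 over 9 libraries and at −0.44 over 6.

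Several members were high in WT1 and WT2, where markers of macrophages and of some other cell types were high as well. WT1 and WT2 exceeded WT3, WT4 and WT6 in 5 of the 7 tested members, namely Vcam1, Selp, Selplg, Itgb2 and Itgal, and in 32.6% of all tested genes. All 12 Kupffer cell and macrophage markers showed the same order. Their summed level was 391.2 FPKM in WT1, 400.9 FPKM in WT2, 130.3 to 216.8 FPKM in WT3, WT4 and WT6 and 159.2 to 327.1 FPKM in the NKO livers. Cd5l, a secreted protein of Kupffer cells, had 83.4 and 71.8 FPKM in WT1 and WT2 and 15.4 to 34.8 FPKM in the 3 others, and C1qa, a complement chain made by macrophages, had 58.5 and 66.0 FPKM against 23.2 to 45.2 FPKM. Over 9 libraries 4 of the 12 had a log2 fold change above 0 and 8 below (median −0.07). Over the 6 of higher depth all 12 were negative with a median of −0.81, against 67.9% negative and a median of −0.11 for all tested genes. Sums of other marker lists were also higher in WT1 and WT2 than in WT3, WT4 and WT6. T and NK cell markers summed to 4.64 and 5.19 FPKM against 1.48 to 3.43 FPKM. B and plasma cell markers had 5.99 and 5.91 FPKM against 3.0 to 3.89 FPKM. Sinusoidal endothelial markers had 74.0 and 97.2 FPKM against 43.6 to 66.3 FPKM, and stellate cell sums were higher too. Sums for neutrophils, monocytes, platelets, hepatocytes and bile duct cells lacked this order. The NKO livers followed the order of the macrophage marker sums for some members only. NKO3 had the third highest sum (327.1 FPKM) and high Selplg (0.847 FPKM) and Itgal (2.48 FPKM), but a low Vcam1 (1.51 FPKM). NKO5, with a sum of 192.9 FPKM, was second for Vcam1 (2.53 FPKM) and Itgal (2.75 FPKM). Marco, also among the 12 markers, was like Vcam1 low in NKO3 (9.21 FPKM) and high in NKO5 (21.7 FPKM). The part of macrophage content, or of other cell types, in the integrin values was not tested. In whole liver fewer cells of a type and less RNA per cell cannot be told apart.

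**Figure D4:**
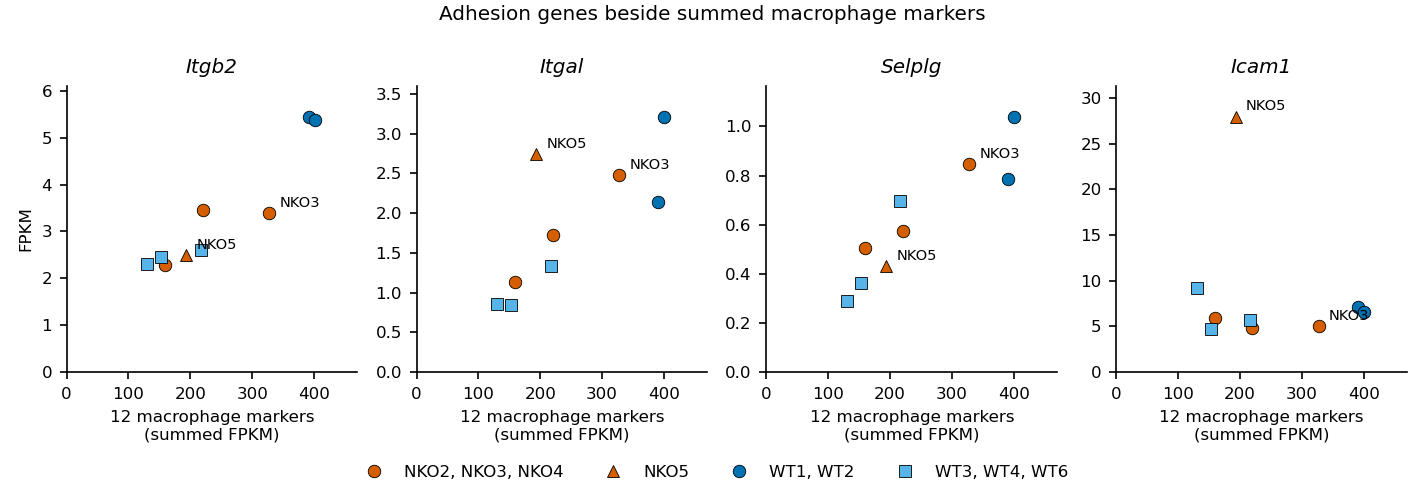
Level in FPKM (y axis) of Itgb2, Itgal, Selplg and Icam1 against the summed FPKM of 12 Kupffer cell and macrophage markers (x axis), with 1 point per liver. Itgb2 is highest in WT1 and WT2, where the sum is 391.2 and 400.9 FPKM, while the Icam1 value of NKO5, 28.0 FPKM, stands at a sum of 192.9 FPKM.

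Other blood cell markers were low. T and NK cell markers, which mark the lymphocytes that carry LFA-1, had a summed level over 12 genes of 2.84 to 4.65 FPKM in NKO livers and 1.48 to 5.19 FPKM in WT livers. Of these 12, only Trac (0.20 to 1.75 FPKM) and Nkg7 (0.103 to 1.35 FPKM) were tested. Monocyte markers summed to 4.20 to 5.18 FPKM in NKO and 4.69 to 8.18 FPKM in WT livers, mostly through Plac8 (3.99 to 7.66 FPKM). B and plasma cell markers summed to 2.95 to 8.47 FPKM in NKO and 3.0 to 5.99 FPKM in WT livers, led by Ighm and Cd79b (1.49 to 3.98 FPKM and 0.374 to 1.36 FPKM). Hepatocyte markers, led by Alb and Apoa1, summed to 46830 to 61300 FPKM in NKO and 43230 to 56750 FPKM in WT livers.

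Relations between members over the 9 livers were computed for the 21 pairs of the 7 tested genes, with exact permutation p-values adjusted over the pairs. None passed an adjusted p under 0.05, and 5 had an unadjusted p under 0.05. The closest was between Vcam1 and Selp (Pearson r = 0.85, exact permutation p = 0.0032, adjusted p = 0.0672; Spearman ρ = 0.83, exact permutation p = 0.0083, adjusted p = 0.150). It was 0.60 without NKO5 and WT1, the 2 livers farthest from the median of Vcam1, and 0.82 among the 6 libraries of higher depth. Selplg and Itgb2 followed (r = 0.79, exact permutation p = 0.0106, adjusted p = 0.111; ρ = 0.78, exact permutation p = 0.0172, adjusted p = 0.150), at 0.67 without WT2 and WT4 and 0.84 among the 6. The 2 chains of LFA-1, Itgb2 and Itgal, had r = 0.69 (exact permutation p = 0.0440, adjusted p = 0.185; ρ = 0.67, exact permutation p = 0.0589, adjusted p = 0.225), at 0.59 without WT1 and WT2 and 0.52 among the 6. Icam1 and Icam2, ligands of the same integrin, had r = −0.15 (exact permutation p = 0.734, adjusted p = 0.770; ρ = −0.17, exact permutation p = 0.678, adjusted p = 0.749). All pairs share libraries and their depth.

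Among tested genes outside the members, those most like Icam1 over the 9 libraries by Pearson r were Tlr2 (r = 0.97, a receptor for bacterial lipoproteins), Gm28913 (0.97) and Rnd1 (0.93). Tlr2 had 7.07 FPKM in NKO5 and 0.737 to 1.91 FPKM elsewhere. The genes most like Vcam1 were Marco (0.98, a scavenger receptor of macrophages), Slfn2 (0.96) and Bsg (0.95, the surface protein basigin). Marco had 37.3, 21.7 and 21.5 FPKM in WT1, NKO5 and WT2, the same 3 livers that were high in Vcam1, and 6.36 to 10.6 FPKM in the others. Those most like Itgb2 were Zmynd8 (0.97, a chromatin reader), Ly86 (0.97, which encodes MD-1) and C1qc (0.96, a complement chain of macrophages). These are descriptions over 9 libraries that were picked from all tested genes for their likeness.

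Other genes of endothelial adhesion and passage were read beside Icam1, Icam2 and Vcam1. Of 17 listed genes 10 were tested, 3 with a log2 fold change above 0 and 7 below, none of them called (median −0.18). All 10 were below 0 among the 6 libraries of higher depth (median −0.17), where 67.9% of all tested genes were (median −0.11). The smallest p-values were those of Esam, Mcam, Cdh5 and Jam2, all of endothelial junctions or the endothelial surface. Esam had 3.93 to 6.13 FPKM in NKO and 4.59 to 7.09 FPKM in WT livers (log2 fold change −0.38, limma adjusted p = 0.844). Mcam had 1.82 to 4.09 FPKM in NKO and 2.40 to 5.50 FPKM in WT livers (−0.60, limma adjusted p = 0.844). Cdh5, which encodes VE-cadherin, had 6.55 to 10.5 FPKM in NKO and 8.05 to 12.8 FPKM in WT livers (−0.37, limma adjusted p = 0.844), and Jam2 had 1.79 to 4.39 FPKM and 3.3 to 4.80 FPKM (−0.49, limma adjusted p = 0.851). For Esam, Mcam, Cdh5 and Jam2 alike, as for Icam2, NKO2 was the highest of the NKO livers. The share of all tested genes with this trait was not computed, so it is a description only. Glycam1 and Madcam1, ligands of lymphoid vessels, were listed as absent in all 9 livers.

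Over 9 libraries most markers of sinusoidal endothelium had the other sign, while among the 6 of higher depth both lists were mostly negative. Of 10 such markers 8 had a log2 fold change above 0 (median 0.32) and none was called, and their summed level was 67.9 to 91.2 FPKM in NKO and 43.6 to 97.2 FPKM in WT livers. Among the 6 libraries of higher depth 9 of the 10 were negative, with a median of −0.23, against 67.9% and −0.11 for all tested genes. Lyve1, a hyaluronan receptor of these cells, had the log2 fold change farthest from 0 and the only unadjusted p under 0.05 of the 10, in the other direction, with 1.45 to 7.85 FPKM in NKO and 7.56 to 11.5 FPKM in WT livers (log2 fold change −1.02, limma unadjusted p = 0.0396, adjusted p = 0.842). Clec4g, a lectin of these cells, had 17.3 to 30.3 FPKM in NKO and 9.69 to 25.6 FPKM in WT livers, and Dnase1l3, a secreted nuclease, had 7.89 to 15.8 FPKM and 4.92 to 14.3 FPKM.

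Of 22 other integrin subunits, 11 were tested, 3 with positive and 8 with negative values and none called (median −0.08). Those with the smallest p were Itgb3 (log2 fold change −0.48, limma adjusted p = 0.894), Itga1 (0.18, limma adjusted p = 0.90), Itgav (0.76, limma adjusted p = 0.906) and Itga2b (−0.14, limma adjusted p = 0.940). Itgb3, the beta chain of the platelet fibrinogen receptor and of the vitronectin receptor, had 0.803 to 1.55 FPKM in NKO and 0.904 to 2.65 FPKM in WT livers.

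Genes that switch integrins on inside the cell gave 5 positive and 8 negative values among 13 tested of 15 listed, with none called (median −0.04). All 13 were negative among the 6 libraries of higher depth, with a median of −0.23. Of all tested genes 67.9% were negative there, with a median of −0.11. The smallest p-values were those of Skap2 (log2 fold change −0.29, limma adjusted p = 0.844), Cyth1 (−0.44, limma adjusted p = 0.844), Fermt2 (0.39, limma adjusted p = 0.90) and Rap1b (−0.15, limma adjusted p = 0.90). Fermt3, which encodes kindlin-3, the form in blood cells, had 1.71 and 1.42 FPKM in WT1 and WT2 and 0.546 to 1.25 FPKM in the other livers, the same livers that were high in Itgb2.

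Selectin ligands and the enzymes that decorate them gave 6 positive and 2 negative values among 8 tested of 13 listed, with none called (median 0.09). The smallest p-values were those of St3gal4 (log2 fold change −0.21, limma adjusted p = 0.902), Tpst2 (0.23, limma adjusted p = 0.924), Tpst1 (0.20, limma adjusted p = 0.924) and Podxl (0.12, limma adjusted p = 0.965). St3gal4, a sialyltransferase, had 20.98 to 39.8 FPKM over all livers, and Tpst1 and Tpst2, which add sulfate to PSGL-1, had 3.97 to 8.21 FPKM and 2.91 to 5.73 FPKM. Fut7, the leukocyte fucosyltransferase that completes the selectin-binding sugar, had 0.114 FPKM or less in every liver.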

How the data were processed

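Stranded poly(A) libraries of 9 livers, with RNA integrity numbers above 7, were read from both ends. HISAT2 for mapping, StringTie for assembly and edgeR for expression levels are the tools the authors name. Versions, genome build and annotation are not given in the sources used here. The authors deposited FPKM values, with absent genes at 0.0001, set to 0 here, and no counts. The deposited fold change, log2, p-value and q-value columns of the authors' own comparison were not used. Columns were placed in groups by name.

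Depth was estimated from FPKM steps of single-exon genes. Gene positions came from GENCODE M21 (GRCm38) by gene identifier, and 55141 of 55401 matched. For the 12350 genes whose mean over the 9 libraries reached 0.5 FPKM, log2(FPKM + 0.1) was fitted in limma 3.58.1 (R 4.3.3), using its mean-variance trend, and p-values were adjusted by Benjamini-Hochberg, with a threshold of 0.05. Folds on this scale understate changes of low genes. The script was tested on simulated data. Single genes were compared by two-sided exact permutation tests in Python 3.11.15. Marker and pathway lists were described by counts and medians.

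Named were Ncf1, the members, up to 4 genes of smallest p per pathway list, the 2 most abundant tested markers per cell type and markers near 0, and the 3 genes most like Icam1, Vcam1 and Itgb2. Further genes (the other NF-kB inducible genes, S100a8, Lyve1, Itgb1, Itgb7, Itgax, Fermt3 and Fut7) were named after their values were seen. The members and lists were chosen with earlier results of these data known.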

Additional observations from a re-analysis of the deposited data

Results flagged for a closer look

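Within a group of livers, a single value was marked where its gap to the nearest other liver as a share of the group's range, exceeded Dixon's 95% critical value for that number of livers. Of 24 groups of values examined for the 10 members, Ncf1 and Lyz2, 4 were marked, and chance marks about 1 in 20. In 3 of the 4 the liver was NKO5. Its gap took 0.953 of the range of the NKO livers for Icam1 (28.0 FPKM, next 5.88 FPKM), 0.856 for Vcam1 (2.53 FPKM, next 1.51 FPKM) and 1.0 for Sele (0.71 FPKM, the other 3 listed as absent). The fourth was Lyz2, a lysozyme gene of myeloid cells, in the WT group, where WT2 had 90.1 FPKM and a gap of 0.718 of the range.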

How the results depend on the processing

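No member was called under any of the 18 alternatives, whose smallest adjusted p was 0.331, and 109 of 124 member log2 fold changes kept their direction. Vcam1 turned to 0.13 with array weights, and among the 6 libraries of higher depth Selp turned to −0.29 and Itgal to −0.44. The depth term was a mark of WT3, WT4 and WT6, not the depth itself. As only WT livers carry it, its log2 fold changes are those of the 6 libraries by construction. The counts above include both. With each library left out, values ran from −0.31 to 0.53 for Icam1, −0.29 to 0.13 for Vcam1, −0.082 to 0.21 for Selp, −0.21 to 0.17 for Selplg, −0.35 to 0.65 for Sele and −0.15 to 0.29 for Itgam, the last 2 as differences of mean log2(FPKM + 0.1). The called genes of all tested numbered 0 with no filter, 0 with no trend, 6 with array weights, 2 with the depth term and 0 to 1 with each library left out. The causes were not tested. The exact test among the 6 libraries was added after the data were seen. No paired analysis was possible because the columns cannot be tied to the labelled replicate numbers. Depth limits Sele, Itgam, Selplg and Selp most, each at under 50 estimated fragments per liver.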
